A study of Mus musculus with 8 samples.

Results

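The genes described here are 34 mouse genes of glycolysis, of the conversion and transport of lactate, and of the entry of pyruvate into mitochondrial oxidation. They were taken as the rows of the deposited gene table whose gene name equals one of 34 chosen symbols, and all 34 were found among its 34745 genes. After a filter on low counts 13436 genes were tested, 32 of the 34 among them. The other two were Hk3, a hexokinase with 1 count in 1 ILC1/3P library and none elsewhere, and Pdk4, a pyruvate dehydrogenase kinase with no count in any library. A count of 0 over all 8 libraries allows at most 0.0569 CPM (counts per 1000000 counts of the scaled library) for Pdk4, counting error only.

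Glycolysis splits glucose into pyruvate in the cytosol and yields a small amount of ATP. Lactate dehydrogenase then exchanges pyruvate with lactate, which monocarboxylate transporters carry across the plasma membrane, while the pyruvate dehydrogenase complex turns pyruvate into acetyl-CoA and is switched off by the pyruvate dehydrogenase kinases. Several steps can be run by isozymes from separate genes, and lymphocytes are known to raise the pathway when they grow and divide.

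The series holds 8 bulk RNA-seq libraries of progenitors sorted from the fetal liver of untreated wild-type B6 mice. ILC1/3P (2 libraries) were live lineage-negative cells with CD45, CD127, α4β7 and CD94 and without Flt3, CD25 or PD-1. ILCP (3 libraries; innate lymphoid cell precursors) shared that gate except that PD-1 was present and CD94 absent, and CLP (3 libraries; common lymphoid progenitors) carried CD45, CD127 and Flt3 and lacked CD25. All 8 libraries share 1 batch date, and their labels give an age of 6 to 8 weeks beside the fetal tissue, so the developmental stage is not known from them. No label ties a library to an animal or says that libraries are separate cultures, so a p-value here is about the scatter among the libraries, possibly a technical one.

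Libraries held 6310739 to 8082476 counts in ILC1/3P, 6043940 to 6905448 in ILCP and 4991939 to 7167619 in CLP. ILC1/3P stood apart in composition: the 50 most abundant genes took 24.8% to 29.2% of ILC1/3P counts, against 15.1% to 18.0% in ILCP and 12.9% to 16.0% in CLP. The TMM scaling factors were 0.671 to 0.753 in ILC1/3P, 1.05 to 1.17 in ILCP and 1.09 to 1.23 in CLP. The median log2 fold change of all tested genes was -0.23 for ILC1/3P against ILCP and -0.25 for ILC1/3P against CLP (-0.86 and -0.93 when libraries were scaled by their total alone), and 0.01 for ILCP against CLP. The RNA of the sorted surface markers followed the gates in part. Flt3 was at 0 CPM in both ILC1/3P libraries, at 0 to 1.28 CPM in ILCP and at 401 to 570 CPM in CLP, and Klrd1 (CD94) had 1184 and 1629 CPM in ILC1/3P, 19.1 to 71.5 CPM in ILCP and 40.8 to 65.5 CPM in CLP. Pdcd1 (PD-1) had 10.2 and 17.5 CPM in ILC1/3P, although these were gated without PD-1, 44.6 to 107 CPM in ILCP and 0 in CLP. Il2ra (CD25, gated out of all groups) had 0.822 and 3.78 CPM in ILC1/3P, 6.26 to 9.26 CPM in ILCP and 0 in CLP. Among the markers gated as present, Itga4 (the α4 chain) had 169 and 100.2 CPM in ILC1/3P, 417 to 490 CPM in ILCP and 302 to 412 CPM in CLP, and Il7r (CD127) had 215 and 214 CPM in ILC1/3P, 461 to 501 CPM in ILCP and 380 to 526 CPM in CLP, both called lower in ILC1/3P against either group.

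ILCP carried the most RNA of the pathway. The mean CPM was highest in ILC1/3P for 3 of the 32 tested genes, in ILCP for 20 and in CLP for 9, while over all 13436 tested genes the highest mean fell in ILC1/3P for 4478, in ILCP for 4075 and in CLP for 4883. With libraries scaled by their total alone these were 1, 22 and 9 of the 32, and 2591, 4925 and 5920 of all. Summed over the 34 genes, the share of a library's counts was 0.338% and 0.232% in ILC1/3P, 0.941%, 0.638% and 0.784% in ILCP, and 0.568%, 0.387% and 0.408% in CLP. By that share the 3 groups did not overlap, with ILCP highest and ILC1/3P lowest. On the TMM-scaled scale the sums were 4498 and 3459 CPM in ILC1/3P, 8088, 6089 and 7094 CPM in ILCP, and 4614, 3556 and 3756 CPM in CLP, so that ILC1/3P and CLP overlapped and only ILCP stood apart. In bulk samples fewer cells of a type and less RNA per cell cannot be told apart.

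The libraries with the highest summed share in their group, ILC1/3P 1, ILCP 1 and CLP 1, were also those with the lowest share of mitochondrially encoded counts in it (4.91%, 2.71% and 2.70%). That share was 4.91% to 5.39% in ILC1/3P, 2.71% to 4.13% in ILCP and 2.70% to 4.53% in CLP. Its part in the differences between groups was not tested.

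**Figure D1:**
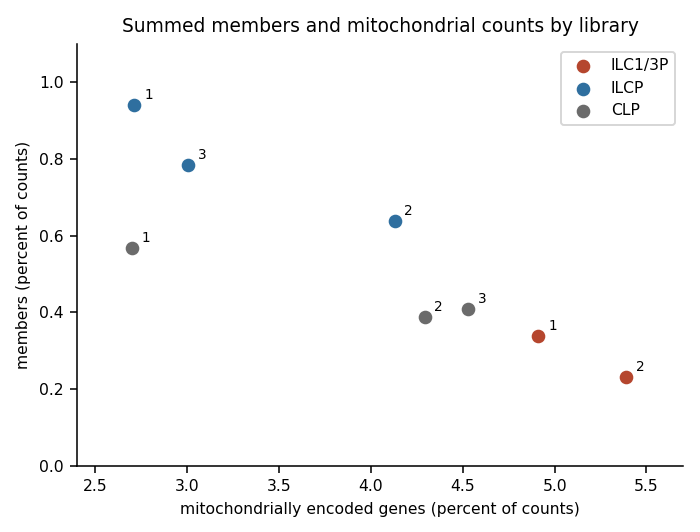
Each point is 1 library, with the counts of mitochondrially encoded genes on the x axis and the summed counts of the 34 genes on the y axis, both as percent of the library's counts; the numbers are replicate numbers. The 3 ILCP libraries lie at 0.638% to 0.941% on the y axis, above the CLP libraries at 0.387% to 0.568%, and the 2 ILC1/3P libraries lie lowest.

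Of the 32 tested genes, 14 passed edgeR's quasi-likelihood test in at least 1 comparison at a Benjamini-Hochberg adjusted p under 0.05, and 18 passed in none. In ILC1/3P against ILCP, 8 fell (Gpi1, Pfkfb3, Aldoa, Pgam2, Eno1, Ldha, Pdk2 and Pdk3) and 0 rose, beside a background of 8.25% of all tested genes lower and 8.06% higher. The 0 was also 0 at an unadjusted p under 0.05 and by DESeq2. In ILC1/3P against CLP, 3 rose (Hk2, Pfkp and Pgam2) and 5 fell (Pfkl, Pfkfb3, Slc16a1, Pdk2 and Pdk3), beside 11.8% and 11.7%. In ILCP against CLP, 6 rose (Pfkp, Aldoa, Pgk1, Pgam2, Ldha and Ldhb) and 1 fell (Slc16a1), beside 3.91% and 2.87%. In all, 25.0%, 25.0% and 21.9% of the tested genes passed in these 3 comparisons, where 16.3%, 23.5% and 6.79% of all genes did; the share in ILC1/3P against CLP was thus near its background.

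The median log2 fold change of the 32 genes was -1.01 for ILC1/3P against ILCP, -0.41 for ILC1/3P against CLP (-0.34 with genes absent from a group set at their bound) and 0.67 for ILCP against CLP. Relative to the median of all tested genes these are -0.78, -0.16 and 0.66, and -0.80, -0.21 and 0.65 when libraries were scaled by their total alone. The 3 comparisons share libraries, so they are not independent of each other. Over all genes, 1083 were called higher and 1109 lower in ILC1/3P against ILCP, and 474 and 2141 with libraries scaled by their total alone. In ILC1/3P against CLP these were 1592 and 1571, and 946 and 2807 with that scaling.

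**Figure D2:**
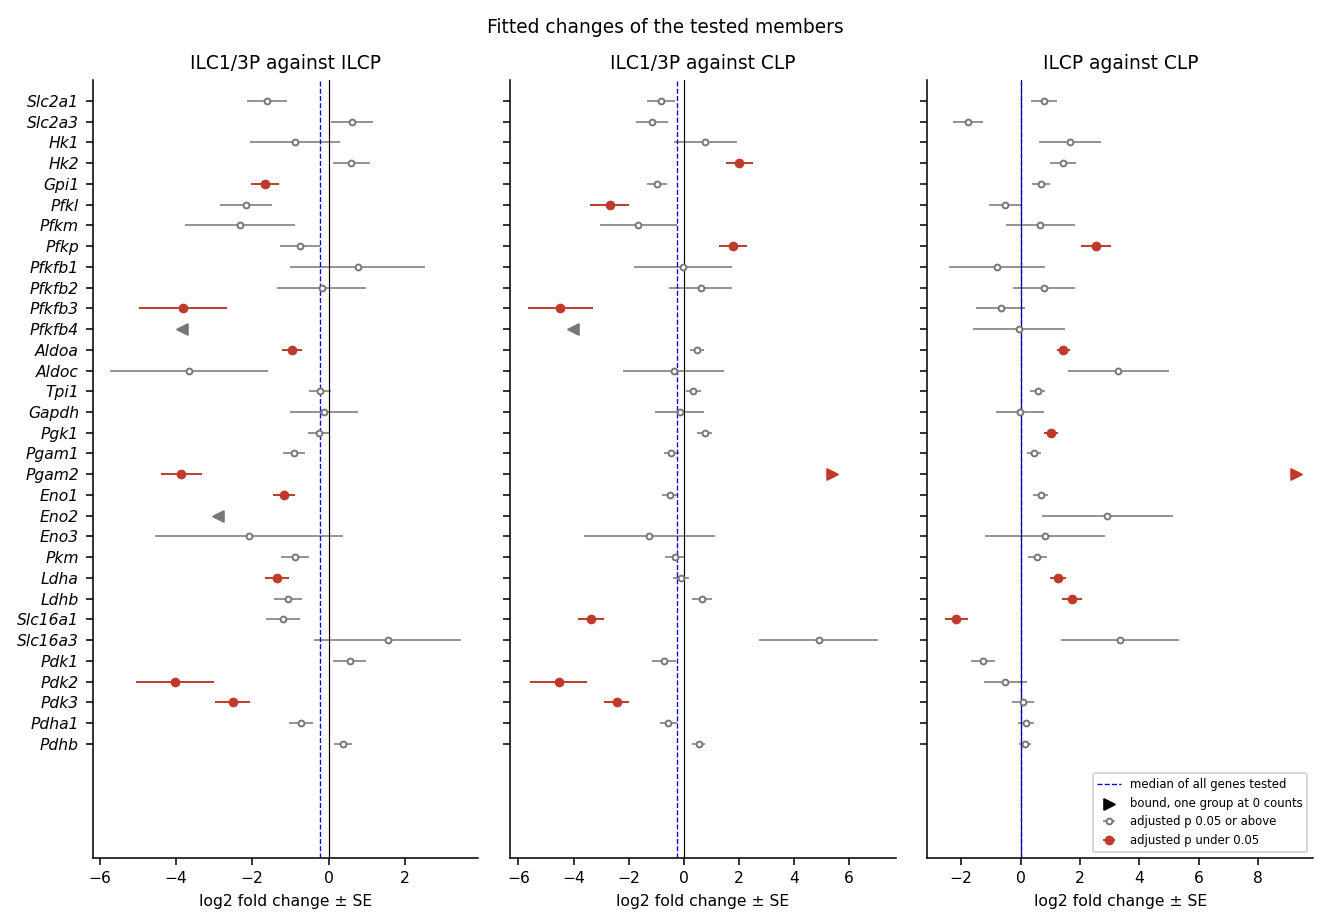
Fitted log2 fold changes with standard errors (x axis) of the 32 tested genes (y axis, in pathway order) in ILC1/3P against ILCP, ILC1/3P against CLP and ILCP against CLP. Filled points passed the test, triangles are bounds where 1 group had no counts, the dashed line is the median of all tested genes, and Eno2 is left out of the middle panel because its bound lies near no change. In ILC1/3P against ILCP all 8 filled points lie left of 0. In ILCP against CLP 6 of the 7 genes that passed lie right of it, with Pgam2 among them as a triangle.

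To set genes of 1 family side by side, levels are needed per length. The length behind the deposited FPKM, worked out from count, library total and FPKM, was 0.981 to 6.07 times that of the longest coding transcript over 33 of the 34 genes, with a median of 2.01, and for Gapdh it was 8626 bases in a locus that spans 4753. Shares are therefore given by the deposited FPKM and also by CPM per kilobase (kb) of the longest coding transcript, and sums that compare groups are given in CPM.

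The glucose transporters summed to 25.5 and 31.4 CPM in ILC1/3P, 42.1 to 64.8 CPM in ILCP and 49.95 to 66.8 CPM in CLP, but neither gene passed the test. Slc2a1 (ENSMUSG00000028645), the widely expressed glucose transporter, had 11.0 and 14.9 CPM in ILC1/3P, 49.9, 32.9 and 36.5 CPM in ILCP, and 28.2, 28.0 and 13.2 CPM in CLP. ILC1/3P and ILCP did not overlap, with an adjusted p of 0.0566 in edgeR's test. Slc2a3, a high-affinity glucose transporter, ranged over 14.5 to 16.5 CPM in ILC1/3P, 5.63 to 14.9 CPM in ILCP and 27.7 to 38.8 CPM in CLP. By FPKM, Slc2a1 made up 61.4% to 65.3% of the pair in ILC1/3P, 87.5% to 93.1% in ILCP and 42.9% to 68.1% in CLP. By CPM per kb these shares were 48.0% to 52.2% in ILC1/3P, 80.2% to 88.7% in ILCP and 30.4% to 55.3% in CLP.

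Hexokinase traps glucose in the cell by phosphorylating it, and Hk2 was its main form, with 75.2% to 98.0% of the hexokinase FPKM and 56.6% to 95.6% of the CPM per kb over all libraries. Hk2 (ENSMUSG00000000628; chromosome 6, 82725025 to 82774454 on mm10) had 57.4 and 45.4 CPM in ILC1/3P, 24.9, 52.4 and 24.4 CPM in ILCP, and 12.4, 9.93 and 15.6 CPM in CLP. The ILC1/3P libraries overlapped ILCP and lay above every CLP library. ILC1/3P exceeded CLP by 2.02 ± 0.48 (log2 fold change ± SE, adjusted p = 0.00989). With libraries scaled by their total alone that adjusted p was 0.0593. Hk1, the constitutive hexokinase, lay between 1.81 and 14.8 CPM with all groups overlapping.

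Gpi1 (ENSMUSG00000036427; chromosome 7, 34201330 to 34230336), the isomerase that makes fructose 6-phosphate, had 54.6 and 74.7 CPM in ILC1/3P, 261, 137 and 216 CPM in ILCP, and 165, 92.4 and 121 CPM in CLP. ILC1/3P lay below every other library. The fall against ILCP was -1.66 ± 0.37 (adjusted p = 0.0101), or an adjusted p of 0.0602 without ILC1/3P replicate 1.

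At phosphofructokinase, the committed step of glycolysis, the 2 main isozyme genes ranked the populations in different orders. Pfkp (ENSMUSG00000021196; chromosome 13, 6579768 to 6648777), the platelet-type subunit, had 49.8 and 29.5 CPM in ILC1/3P, 90.4, 57.8 and 51.8 CPM in ILCP, and 19.6, 8.28 and 6.37 CPM in CLP. Both innate lymphoid populations lay above every CLP library, by 2.54 ± 0.50 in ILCP (adjusted p = 0.00831) and by 1.79 ± 0.52 in ILC1/3P (adjusted p = 0.0278). The ILCP result had an adjusted p of 0.0515 without CLP replicate 2. The ILC1/3P result had 0.0915 without CLP replicate 2, 0.0874 without CLP replicate 3, 0.152 without ILC1/3P replicate 1, 0.180 with libraries scaled by their total alone and 0.0677 with only the 2 groups in the fit. Without CLP replicate 1, the highest of its group, the log2 fold changes were 3.18 for ILCP and 2.44 for ILC1/3P.

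Pfkl (ENSMUSG00000020277; chromosome 10, 77986947 to 78010083), the liver-type subunit, showed the other order. It had 4.28 and 8.04 CPM in ILC1/3P, 32.1, 14.1 and 36.5 CPM in ILCP, and 67.4, 20.1 and 30.7 CPM in CLP. ILC1/3P lay below every CLP library, with a log2 fold change of -2.69 ± 0.70 (adjusted p = 0.0166). That adjusted p was 0.0694 without CLP replicate 1, where the log2 fold change was -2.05, and 0.0898 without ILC1/3P replicate 1. Against ILCP the groups did not overlap either, with an adjusted p of 0.0524.

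As shares of the phosphofructokinase FPKM, Pfkp made up 60.1% to 67.2% in ILC1/3P, 28.5% to 48.6% in ILCP and 5.42% to 12.4% in CLP. Pfkl made up 14.1% to 39.9% in ILC1/3P, 24.5% to 48.8% in ILCP and 63.6% to 80.0% in CLP. By CPM per kb, Pfkp made up 76.8% to 83.7% in ILC1/3P, 48.4% to 68.4% in ILCP and 11.9% to 24.3% in CLP. On neither scale did the ranges of the Pfkp share overlap between groups, while the CPM summed over the 3 subunits was 37.6 to 57.6 in ILC1/3P, 83.9 to 127 in ILCP and 30.7 to 92.4 in CLP. Pfkm, the muscle-type subunit, lay at 0 to 12.0 CPM and passed no test. These shares are descriptions without a test.

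**Figure D3:**
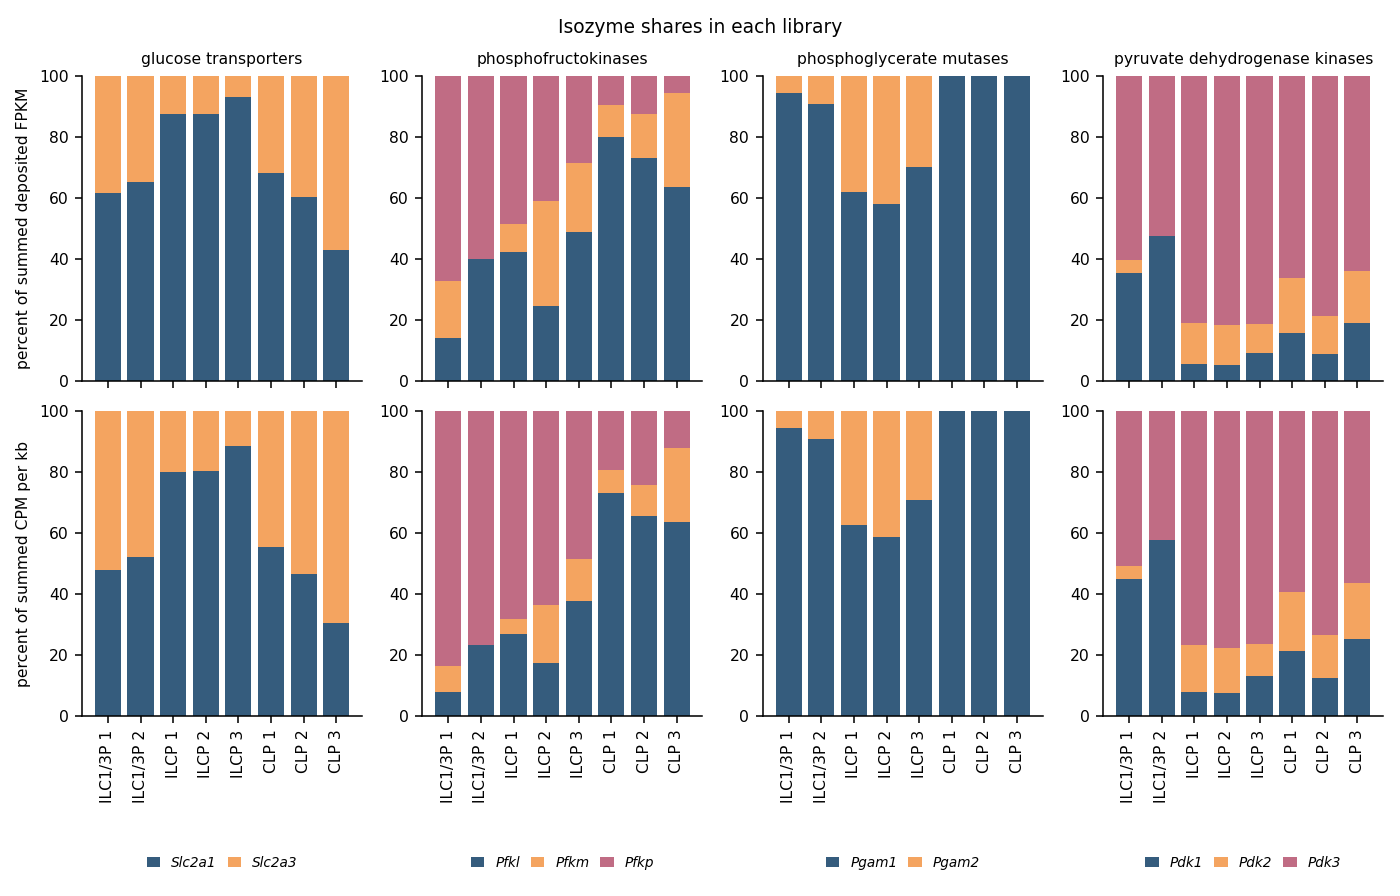
Share of each isozyme in its family (y axis, percent) in the 8 libraries (x axis) for glucose transporters, phosphofructokinases, phosphoglycerate mutases and pyruvate dehydrogenase kinases, by deposited FPKM in the upper row and by CPM per kb of transcript in the lower row. By FPKM, Pfkp takes 60.1% to 67.2% in ILC1/3P against 5.42% to 12.4% in CLP, and by CPM per kb 76.8% to 83.7% in ILC1/3P against 11.9% to 24.3% in CLP; by FPKM, Pgam2 takes 29.9% to 42.1% in ILCP and 0% in CLP.

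The bifunctional PFKFB enzymes set the level of fructose 2,6-bisphosphate, the activator of phosphofructokinase, and all 4 genes were low, with a sum of 2.84 to 30.5 CPM. Pfkfb3 (ENSMUSG00000026773; chromosome 2, 11471433 to 11554077), the form with the strongest kinase activity, had 0.822 and 0.236 CPM in ILC1/3P, 3.84, 14.1 and 5.91 CPM in ILCP, and 15.8, 6.81 and 15.6 CPM in CLP. ILC1/3P rested on 5 and 1 counts and lay below all other libraries. The log2 fold change was -3.81 ± 1.15 against ILCP (adjusted p = 0.0429) and -4.49 ± 1.18 against CLP (adjusted p = 0.0171). The call against ILCP was lost under 9 of the 14 alternative settings. Its adjusted p was 0.0547 to 0.167 without any 1 of the CLP or ILC1/3P libraries or of ILCP replicates 2 and 3, with a log2 fold change of -4.97 without ILC1/3P replicate 1, which leaves 1 count in ILC1/3P, and -3.07 without ILCP replicate 2. Against CLP it was 0.0509 without CLP replicate 1 and 0.0811 without ILC1/3P replicate 2, and the log2 fold change was -5.65 without ILC1/3P replicate 1.

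The other PFKFB genes passed no test. Pfkfb1 had 10.4 and 0 CPM in ILC1/3P, 3.84, 0 and 5.35 CPM in ILCP, and 6.91, 3.31 and 5.63 CPM in CLP. Pfkfb4 was at 0 in both ILC1/3P libraries, against 8.53, 0 and 4.08 CPM in ILCP and 7.14, 2.94 and 2.96 CPM in CLP. A floor of 3 counts pooled over ILC1/3P, 0.291 CPM, puts it at least 14.3-fold lower than ILCP and at least 16.2-fold lower than CLP, with adjusted p of 0.0968 and 0.0755.

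Aldolase was almost wholly Aldoa, with at least 97.5% of the aldolase FPKM and 98.7% of the CPM per kb in each library. Aldoa (ENSMUSG00000030695; chromosome 7, 126795234 to 126800751), which cleaves fructose 1,6-bisphosphate, had 488 and 424 CPM in ILC1/3P, 1073, 735 and 849 CPM in ILCP, and 313, 287 and 379 CPM in CLP. The 3 groups did not overlap. ILCP exceeded CLP by 1.44 ± 0.23 (adjusted p = 0.00201), and the log2 fold change of ILC1/3P against ILCP was -0.96 ± 0.26 (adjusted p = 0.0254). The ILCP rise kept its call under each of the 14 alternative settings. The ILC1/3P fall had an adjusted p of 0.0589, 0.142, 0.0855 and 0.0621 without ILC1/3P replicates 1 and 2 and ILCP replicates 1 and 3, in that order.

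Tpi1, triose phosphate isomerase, had 406 and 324 CPM in ILC1/3P, 480, 330 and 463 CPM in ILCP, and 367, 269 and 221 CPM in CLP. The groups overlapped, and it passed no test.

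Pgk1 (ENSMUSG00000062070; X chromosome, 106187100 to 106203699), the first ATP-forming enzyme of the pathway, had 468 and 253 CPM in ILC1/3P, 429, 417 and 445 CPM in ILCP, and 226, 195 and 215 CPM in CLP. All 3 ILCP libraries lay above CLP, by 1.02 ± 0.25 on the log2 scale (adjusted p = 0.0277), while the 2 ILC1/3P libraries lay far apart. The call was lost when any 1 of the 6 ILCP and CLP libraries was left out. The adjusted p was 0.0614, 0.128 and 0.0976 without CLP replicates 1, 2 and 3, and 0.0783, 0.0673 and 0.0959 without ILCP replicates 1, 2 and 3; it was 0.0566 with libraries scaled by their total alone.

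At phosphoglycerate mutase the muscle gene separated all 3 populations. Pgam2 (ENSMUSG00000020475; chromosome 11, 5801640 to 5803733) had 5.92 and 6.15 CPM in ILC1/3P, 107, 98.0 and 58.0 CPM in ILCP, and no count in any of the 3 CLP libraries. The raw counts were 36 and 26 in ILC1/3P and 753, 709 and 412 in ILCP. No 2 groups overlapped. Against a floor of 3 counts pooled over CLP, 0.143 CPM, ILCP was at least 614-fold higher (adjusted p = 1.69e-05) and ILC1/3P at least 42.1-fold higher (adjusted p = 0.000167). The log2 fold change of ILC1/3P against ILCP was -3.86 ± 0.54 (adjusted p = 0.00188). It was the only one of the 32 genes called in all 3 comparisons. Its fitted fold change ranked 14 from the top among 13436 genes in ILCP against CLP, a rank that rests on the absence of counts in CLP. All 3 calls held under each of the 14 alternative settings.

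Pgam1, the widely expressed mutase, had 215 and 132 CPM in ILC1/3P, 380, 293 and 296 CPM in ILCP, and 273, 195 and 242 CPM in CLP, and passed no test. ILC1/3P lay below every ILCP library and overlapped CLP. Per length the muscle form was still the smaller part: Pgam2 made up 5.67% to 9.19% of the mutase FPKM in ILC1/3P, 29.9% to 42.1% in ILCP and 0% in CLP. By CPM per kb it was 5.50% to 8.93% in ILC1/3P, 29.3% to 41.4% in ILCP and 0% in CLP. No 50-base stretch of the Pgam2 transcript occurred in another annotated gene, against 41.5% of those of Pgam1.

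The mast cell and basophil list moved in the same order as Pgam2, with a summed level of 189 and 251 CPM in ILC1/3P, 485 to 633 CPM in ILCP and 2.83 to 4.42 CPM in CLP. Nearly all of it was Cpa3, a mast cell carboxypeptidase also found in early blood progenitors, with 185 and 237 CPM in ILC1/3P, 481, 627 and 499 CPM in ILCP, and 0, 0 and 2.82 CPM in CLP. Of the 8 markers, the defining genes Ms4a2, Fcer1a, Mcpt8 and Prss34 were at 0 in all 3 groups. Of the 7 megakaryocyte markers, Gp1bb followed the same order, at 14.3 and 32.4 CPM in ILC1/3P, 54.8, 45.2 and 53.4 CPM in ILCP and 0 in CLP, while Ppbp and Treml1 were at 0 in every group.

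Eno1 (ENSMUSG00000063524; chromosome 4, 150236721 to 150248879), the main enolase with at least 93.6% of the enolase FPKM and 96.5% of the CPM per kb in each library, had 252 and 211 CPM in ILC1/3P, 660, 398 and 497 CPM in ILCP, and 401, 276 and 296 CPM in CLP. ILC1/3P lay below every other library and differed from ILCP by a log2 fold change of -1.16 ± 0.29 (adjusted p = 0.0184). That adjusted p was 0.121 without ILC1/3P replicate 2, 0.0666 without ILCP replicate 1 and 0.0503 without ILCP replicate 3. Eno2 and Eno3, the neuronal and muscle enolases, stayed at or below 8.73 CPM. Pkm, pyruvate kinase, had 194 and 215 CPM in ILC1/3P, 482, 229 and 414 CPM in ILCP, and 350, 179 and 234 CPM in CLP, and passed no test. Its ILC1/3P libraries lay below ILCP and overlapped CLP.

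**Figure D4:**
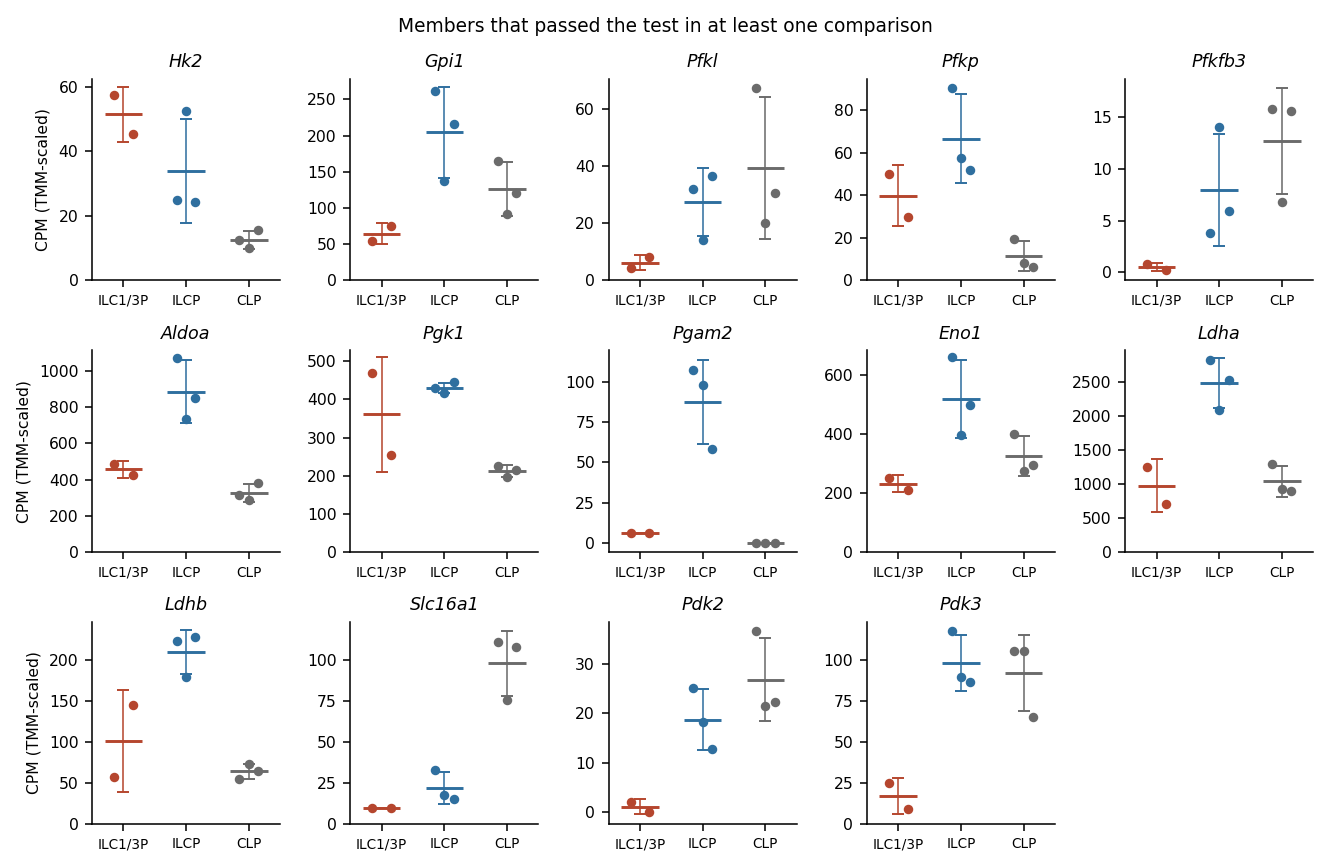
TMM-scaled CPM (y axis, linear) of the 14 genes that passed the test in at least 1 comparison, with 1 point for each library of ILC1/3P (2), ILCP (3) and CLP (3), the mean as a bar and the SD as whiskers. Pgam2 is at 0 in CLP and at 58.0 to 107 CPM in ILCP, and Slc16a1 is at 9.38 and 9.69 CPM in ILC1/3P against 75.4 to 111 CPM in CLP.

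Lactate dehydrogenase RNA was highest in ILCP. Ldha (ENSMUSG00000063229; chromosome 7, 46841475 to 46855627), the subunit that favours lactate formation, had 1252 and 701 CPM in ILC1/3P, 2828, 2093 and 2537 CPM in ILCP, and 1298, 930 and 893 CPM in CLP. ILCP lay above all other libraries, while ILC1/3P and CLP overlapped. ILCP exceeded CLP by 1.26 ± 0.27 (adjusted p = 0.0140), and the log2 fold change of ILC1/3P against ILCP was -1.35 ± 0.31 (adjusted p = 0.0125). The rise in ILCP had adjusted p of 0.0885 and 0.0818 without CLP replicates 2 and 3, and of 0.0601 and 0.0606 without ILCP replicates 1 and 3. The fall in ILC1/3P had an adjusted p of 0.103 without ILC1/3P replicate 2. By mean CPM per kb, Ldha was the most abundant of the 34 genes in each group, at 538 in ILC1/3P, 1370 in ILCP and 573 in CLP. By the deposited FPKM it came second to Pdhb in ILC1/3P and in CLP.

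Ldhb (ENSMUSG00000030246; chromosome 6, 142490249 to 142507957), the subunit that favours the return of lactate to pyruvate, had 56.7 and 146 CPM in ILC1/3P, 223, 179 and 228 CPM in ILCP, and 54.5, 72.7 and 64.3 CPM in CLP. ILCP again lay above all other libraries, and the 2 ILC1/3P libraries lay far apart. ILCP exceeded CLP by 1.72 ± 0.33 (adjusted p = 0.00756), a call that held under each of the 14 alternative settings. The Ldhb share of the lactate dehydrogenase FPKM was 9.56% and 32.6% in ILC1/3P, 15.5% to 17.3% in ILCP and 8.92% to 15.4% in CLP. By CPM per kb it was 5.94% and 22.4% in ILC1/3P, 9.89% to 11.1% in ILCP and 5.52% to 9.81% in CLP.

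The lactate transporter Slc16a1 fell in ILCP against CLP, where both dehydrogenase genes rose. Slc16a1 (ENSMUSG00000032902; chromosome 3, 104638668 to 104658462), a monocarboxylate transporter for lactate and pyruvate, had 9.38 and 9.69 CPM in ILC1/3P, 33.0, 17.3 and 15.3 CPM in ILCP, and 111, 75.4 and 108 CPM in CLP. The 3 groups did not overlap. The fall against CLP was -3.36 ± 0.48 in ILC1/3P (adjusted p = 0.000463) and -2.17 ± 0.38 in ILCP (adjusted p = 0.00453), and both held under each of the 14 alternative settings. Slc16a3, the export-type lactate transporter, had 10.7 and 4.02 CPM in ILC1/3P, 0 to 4.69 CPM in ILCP and 0 to 0.736 CPM in CLP and passed no test. Its share of the FPKM of the pair was 36.6% and 17.3% in ILC1/3P, 0% to 8.49% in ILCP and 0% to 0.491% in CLP. By CPM per kb it was 53.8% and 29.7% in ILC1/3P, 0% to 15.8% in ILCP and 0% to 0.986% in CLP.

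At the entry of pyruvate into oxidation, 2 of the inhibitory kinases, Pdk3 and Pdk2, fell in ILC1/3P. Pdk3 (ENSMUSG00000035232; X chromosome, 93764607 to 93832201) had 24.8 and 9.22 CPM in ILC1/3P, 118, 90.0 and 86.6 CPM in ILCP, and 106, 106 and 65.4 CPM in CLP. ILC1/3P lay below all other libraries, by -2.51 ± 0.46 against ILCP (adjusted p = 0.00408) and by -2.43 ± 0.46 against CLP (adjusted p = 0.00280). Both calls held under each of the 14 alternative settings, with -3.41 and -3.32 without ILC1/3P replicate 1.

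Pdk2 (ENSMUSG00000038967; chromosome 11, 95026258 to 95041354) had 2.14 and 0 CPM in ILC1/3P, 25.2, 18.2 and 12.8 CPM in ILCP, and 36.6, 21.5 and 22.4 CPM in CLP. Its ILC1/3P level rested on 13 counts in 1 library. The log2 fold change was -4.02 ± 1.02 against ILCP (adjusted p = 0.0201) and -4.54 ± 1.04 against CLP (adjusted p = 0.00847). Without ILC1/3P replicate 2, the library with no count, these were -3.11 and -3.64; without ILC1/3P replicate 1 the remaining ILC1/3P library was at 0 and no fold is given. Against ILCP the adjusted p was 0.0598 without ILCP replicate 1 and 0.0698 with only the 2 groups in the fit.

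Pdk1, the kinase known as a hypoxia target, had 54.0 and 31.0 CPM in ILC1/3P, 29.9, 21.1 and 35.9 CPM in ILCP, and 93.6, 44.0 and 72.0 CPM in CLP, and passed no test. Pdk1 made up 35.4% to 47.5% of the kinase FPKM in ILC1/3P, against 5.18% to 9.09% in ILCP and 8.81% to 19.0% in CLP. By CPM per kb it made up 45.0% to 57.8% in ILC1/3P, 7.45% to 12.9% in ILCP and 12.5% to 25.4% in CLP. The kinases summed to 80.9 and 40.2 CPM in ILC1/3P, 129 to 173 CPM in ILCP and 160 to 236 CPM in CLP.

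Neither subunit gene of the enzyme these kinases act on passed the test. Pdhb, the beta subunit, had 683 and 692 CPM in ILC1/3P, 470, 564 and 550 CPM in ILCP, and 398, 529 and 492 CPM in CLP. ILC1/3P lay above all other libraries on this TMM-scaled scale. With libraries scaled by their total alone the order turned, with 514 and 464 CPM in ILC1/3P, below all ILCP libraries at 547 to 607 CPM, and 489 to 576 CPM in CLP. Pdha1, the catalytic alpha subunit, had 154 and 87.7 CPM in ILC1/3P, 203, 231 and 167 CPM in ILCP, and 216, 147 and 172 CPM in CLP. The remaining genes without a call, Hk1, Pfkm, Pfkfb2, Aldoc, Eno2 and Eno3, had at most 23.7 CPM in any library.

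Several of the 34 transcripts have near-identical processed copies elsewhere in the genome, and reads that match more than 1 place can be lost or misplaced in counting. Gapdh (ENSMUSG00000057666; chromosome 6, 125161715 to 125166467), the oxidoreductase between triose phosphate isomerase and Pgk1, had 3.13 and 9.93 CPM in ILC1/3P, 5.55, 7.32 and 8.45 CPM in ILCP, and 6.35, 8.46 and 6.82 CPM in CLP. These are 19 to 60 counts a library, and all groups overlapped. At a mean of 4.60 CPM per kb in ILC1/3P, 5.00 CPM per kb in ILCP and 5.08 CPM per kb in CLP, Gapdh stood far below Tpi1, its neighbour in the pathway, which had 227 CPM per kb in ILC1/3P, 264 CPM per kb in ILCP and 178 CPM per kb in CLP.

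In the GENCODE M21 annotation of the same build, 82.5% of the 50-base stretches and 78.0% of the 100-base stretches of the Gapdh transcript also occurred in other genes, 222 and 86 of them. It had 66 annotated pseudogene copies of at least 95% identity over at least 50% of its length. Only 4 of these have a row in the deposited table, with 9 to 57 counts summed per library. How the deposited counting treated reads that match several places is not given in the sources used here, so the part of lost reads in the low Gapdh level was not tested, and no comparison of Gapdh is drawn.

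Eno1 and Pgk1 also share much of their sequence, 72.2% and 68.0% of 50-base stretches. They had 2 annotated pseudogene copies each, against 66 for Gapdh. Of their 100-base stretches, 59.0% and 67.0% also occurred in other genes, beside 78.0% for Gapdh. Only 4 and 3 other genes held these stretches, against 86 for Gapdh. Mean levels of Eno1 and Pgk1 were 114 and 198 CPM per kb in ILC1/3P, 256 and 236 CPM per kb in ILCP, and 160 and 116 CPM per kb in CLP. Pgam1 shared 41.5%, Pkm 34.4%, Pdhb 30.3%, Ldhb 27.0%, Gpi1 25.3%, Pfkfb2 25.1%, Pfkp 17.1%, Pdha1 16.9% and Ldha 16.6%. Over 100-base stretches Pfkfb2 shared 23.9%, Pfkp 16.0%, Ldha 1.28% and Aldoa 0%. By the rule used for Gapdh, Pgam1, Pfkfb2, Pfkp and Pdha1 had 0 annotated pseudogene copies. Stretches were matched on both strands, and the exons of Pfkfb2, Pfkp and Pdha1 overlap those of another gene at the same locus. How much of their sharing comes from that overlap was not tested. The 1 annotated copy of Gpi1 had 72 and 74 counts in ILC1/3P, 387, 215 and 310 in ILCP, and 341, 64 and 181 in CLP. Gpi1 itself had 316 to 1835 counts a library. Whether the levels of these genes are understated was not tested, and comparisons of 1 gene between groups use the same transcript on both sides. Slc16a1, Hk2, Pdk1, Pdk2, Pdk3 and Pgam2 shared none.

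**Figure D5:**
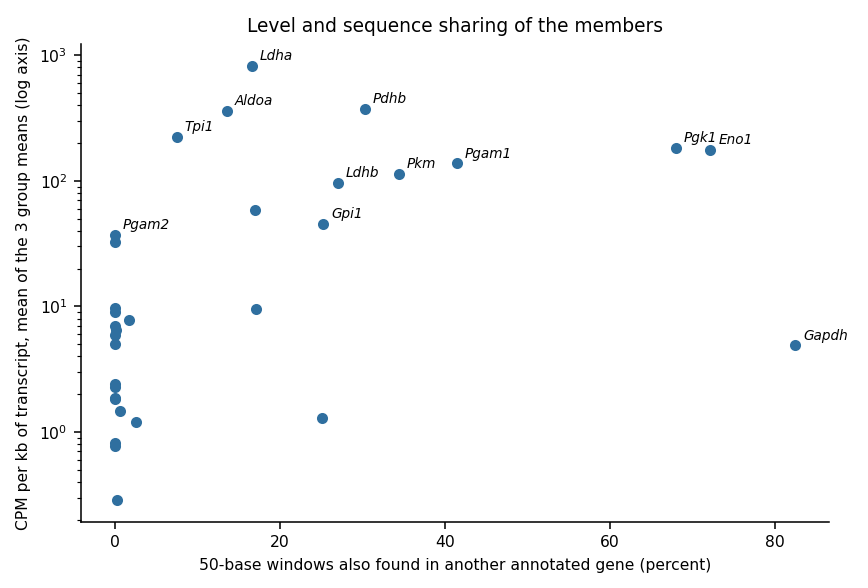
Each point is 1 gene, with the percent of 50-base stretches of its transcript also found in another annotated gene on the x axis and its CPM per kb of transcript, the mean of the 3 group means, on a log y axis; Hk3 and Pdk4, with a mean under 0.1 CPM per kb, are left out. Gapdh lies at 82.5% and 4.89 CPM per kb, and Eno1 and Pgk1 at 72.2% and 68.0% lie at 177 and 183 CPM per kb.

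Promoter windows are shown for the 6 genes called higher in ILCP against CLP and for Slc16a1, the 1 called lower. They are the 250 bases before a RefSeq start site (build GRCm38.p6), written 5′ to 3′ in the direction of the gene. Capitals mark ACGTG, the core bound by hypoxia-inducible factors, on either strand, and with it CACGTG, the E-box bound by Myc and its relatives, which contains that core on both strands.
Pfkp, chr13:6648772-6649021, minus strand: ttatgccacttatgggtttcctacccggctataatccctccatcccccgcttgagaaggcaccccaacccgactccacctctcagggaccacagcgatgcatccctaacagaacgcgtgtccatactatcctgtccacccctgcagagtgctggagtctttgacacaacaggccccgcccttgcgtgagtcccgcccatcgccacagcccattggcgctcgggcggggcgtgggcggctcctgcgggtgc
Ldha, chr7:46845554-46845803, plus strand: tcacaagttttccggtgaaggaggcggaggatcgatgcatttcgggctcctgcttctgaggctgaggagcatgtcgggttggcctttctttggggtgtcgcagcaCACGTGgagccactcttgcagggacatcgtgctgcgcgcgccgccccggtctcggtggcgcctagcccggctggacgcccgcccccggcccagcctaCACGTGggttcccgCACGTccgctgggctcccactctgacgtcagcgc
Aldoa, chr7:126799255-126799504, minus strand: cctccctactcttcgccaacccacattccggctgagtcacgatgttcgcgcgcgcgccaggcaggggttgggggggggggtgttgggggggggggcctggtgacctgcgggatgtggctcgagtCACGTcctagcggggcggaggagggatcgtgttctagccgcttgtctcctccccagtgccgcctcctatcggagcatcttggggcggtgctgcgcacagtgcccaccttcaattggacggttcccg
Pgk1, chrX:106186850-106187099, plus strand: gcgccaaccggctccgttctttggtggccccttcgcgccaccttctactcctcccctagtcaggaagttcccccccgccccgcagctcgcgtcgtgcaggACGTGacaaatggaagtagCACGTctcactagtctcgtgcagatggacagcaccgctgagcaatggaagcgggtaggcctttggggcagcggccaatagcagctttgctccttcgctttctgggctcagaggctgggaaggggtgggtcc
Pgam2, chr11:5803797-5804046, minus strand: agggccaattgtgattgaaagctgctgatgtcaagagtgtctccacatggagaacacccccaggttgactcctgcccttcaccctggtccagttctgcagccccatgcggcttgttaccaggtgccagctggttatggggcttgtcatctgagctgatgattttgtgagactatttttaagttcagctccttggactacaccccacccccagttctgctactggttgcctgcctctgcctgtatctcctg
Ldhb, chr6:142507958-142508207, minus strand: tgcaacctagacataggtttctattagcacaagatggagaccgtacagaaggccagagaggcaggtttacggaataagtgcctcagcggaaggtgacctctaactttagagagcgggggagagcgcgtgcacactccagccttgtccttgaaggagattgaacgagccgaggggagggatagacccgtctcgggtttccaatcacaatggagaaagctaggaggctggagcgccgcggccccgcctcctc
Slc16a1, chr3:104638414-104638663, plus strand: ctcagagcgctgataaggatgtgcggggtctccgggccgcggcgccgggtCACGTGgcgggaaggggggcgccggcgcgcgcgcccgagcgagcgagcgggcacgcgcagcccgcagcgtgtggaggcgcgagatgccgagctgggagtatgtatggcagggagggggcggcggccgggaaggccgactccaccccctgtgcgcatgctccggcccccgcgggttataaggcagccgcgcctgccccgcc

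RefSeq windows were found for 33 of the 34 genes, 52 windows in all, since some genes have several starts. In windows from 250 bases before to 50 after the start, ACGTG on either strand occurred in 23 of the 52 (44.2%) and in 6447 of 32851 windows of all genes (19.6%), and 19 of the 33 genes had it. CACGTG occurred in 6 of the 52 windows (11.5%) and in 2349 of all windows (7.15%). Ldha and Slc16a1, which moved in opposite directions between ILCP and CLP, both hold CACGTG in the printed window, while the windows of Pgam2, Pfkp and Ldhb hold neither motif. Ldha has a second RefSeq start, and Aldoa 2 more. The 250 bases before that Ldha start and before 1 of those of Aldoa hold neither motif. The window of the other Aldoa start overlaps the printed one and holds the same ACGTG. The printed starts of Pfkp, Aldoa, Pgk1 and Ldhb were found in a GENCODE M21 transcript of the gene. Those of Ldha, Pgam2 and Slc16a1 were not, while the second Ldha start was. A match is a description of the letters and not a site of binding.

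Of 23 listed regulators of the pathway, 21 were tested. Myc, a transcription factor known to raise glycolytic genes, had 13.5 and 16.8 CPM in ILC1/3P, 35.8, 48.4 and 33.5 CPM in ILCP, and 283, 223 and 271 CPM in CLP. The log2 fold change against CLP was -4.10 ± 0.34 in ILC1/3P and -2.72 ± 0.27 in ILCP (adjusted p = 1.42e-05 and 6.84e-05), and that of ILC1/3P against ILCP was -1.38 ± 0.30 (adjusted p = 0.00978). Myc was thus highest in CLP and lowest in ILC1/3P. Its part in the levels of the 34 genes was not tested.

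Hif1a, the oxygen-regulated activator of the pathway, had 58.2 and 61.0 CPM in ILC1/3P, 139, 139 and 124 CPM in ILCP, and 118, 104 and 103 CPM in CLP. ILC1/3P lay below all other libraries, with log2 fold changes of -1.17 ± 0.26 against ILCP and -0.86 ± 0.26 against CLP (adjusted p = 0.0115 and 0.0335). Egln3, a prolyl hydroxylase that marks Hif1a for breakdown, fell with it, to 5.10 and 9.45 CPM in ILC1/3P against 24.7 to 37.0 CPM in ILCP and 23.9 to 30.9 CPM in CLP. Rheb, the activator of mTORC1, rose to 673 and 857 CPM in ILC1/3P against 276 to 351 CPM in ILCP and 252 to 351 CPM in CLP. Rheb was the 1 regulator called higher in ILC1/3P against ILCP and against CLP, and Myc, Hif1a and Egln3 were the 3 called lower in both. These were 19.0% of the tested regulators in each comparison, beside 16.3% and 23.5% of all tested genes. In ILCP against CLP 0 were higher and 1, Myc, was lower (4.76% called, beside 6.79% of all tested genes). For that 0, 1 was higher at an unadjusted p under 0.05 and 1 by DESeq2.

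Genes around the pathway were counted in the same way. Of 20 tested other glycolysis and monocarboxylate genes, 1 rose and 3 fell in ILC1/3P against ILCP. Against CLP 1 rose and 4 fell in ILC1/3P. In ILCP against CLP 0 were called (3 higher and 1 lower at an unadjusted p under 0.05, and 2 and 1 by DESeq2). The called shares were 20.0%, 25.0% and 0%, beside 16.3%, 23.5% and 6.79% of all tested genes. Both ILC1/3P shares were thus near their background. Adpgk, the ADP-dependent glucokinase, had 13.2 and 10.2 CPM in ILC1/3P, 123, 71.9 and 92.8 CPM in ILCP, and 39.1, 53.0 and 31.6 CPM in CLP. Slc16a7, a high-affinity pyruvate transporter, was at 0 in ILC1/3P, at least 26.1-fold lower than ILCP and at least 40.7-fold lower than CLP. Slc16a10, an aromatic amino acid transporter of the same family, had 108 and 66.4 CPM in ILC1/3P against 19.4 to 22.2 CPM in ILCP and 13.5 to 24.5 CPM in CLP.

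Both genes of the mitochondrial pyruvate carrier rose in ILC1/3P. Mpc1 had 163 and 228 CPM in ILC1/3P, 57.6, 61.6 and 66.3 CPM in ILCP, and 35.6, 42.7 and 66.7 CPM in CLP, higher in ILC1/3P by 1.66 ± 0.33 and 2.02 ± 0.33 (adjusted p = 0.00589 and 0.00111 against ILCP and CLP). Mpc2, its partner subunit, was higher by 1.20 ± 0.27 and 1.40 ± 0.27 (adjusted p = 0.0106 and 0.00295). With libraries scaled by their total alone, Mpc2 exceeded ILCP by 0.55 (adjusted p = 0.124). Of the 8 tested genes of this list 4 were called in each of those comparisons, beside 16.3% and 23.5% of all tested genes. The other 2 called fell. Pdp1, a phosphatase that reverses the kinases, had log2 fold changes of -2.82 ± 0.51 and -1.78 ± 0.49, and Dld, the dihydrolipoamide dehydrogenase of the complex, had -1.46 ± 0.43 and -1.67 ± 0.43. In ILCP against CLP 0 of the 8 were called (1 higher at an unadjusted p under 0.05, 0 by DESeq2), beside 6.79%.

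Of 20 tricarboxylic acid cycle genes, 3 rose and 5 fell in ILC1/3P against ILCP, and 2 rose and 6 fell in ILC1/3P against CLP. In ILCP against CLP 0 rose and 2 fell (for the 0, 2 at an unadjusted p under 0.05 and 0 by DESeq2). Thus 8, 8 and 2 of the 20 were called, beside 16.3%, 23.5% and 6.79% of all tested genes. Idh2, mitochondrial isocitrate dehydrogenase, had 29.0 and 25.5 CPM in ILC1/3P, 152, 130 and 160 CPM in ILCP, and 429, 341 and 373 CPM in CLP, and was called lower in each comparison. Sdhd, a membrane subunit of succinate dehydrogenase, rose in ILC1/3P to 2105 and 2021 CPM, against 665 to 890 CPM in ILCP and 651 to 1054 CPM in CLP. With libraries scaled by their total alone the log2 fold change of Sdhd against CLP was 0.57 (adjusted p = 0.0676), and of the list 1 was higher and 8 lower in ILC1/3P against ILCP and 0 higher and 9 lower in ILC1/3P against CLP. Of the 8 pentose phosphate genes, 0 rose and 1 fell, 1 rose and 3 fell, and 2 rose and 1 fell in the same 3 comparisons (for the 0, 0 by both other counts). These are 1, 4 and 3 of the 8, beside the same shares of all tested genes. The 1 of 8 in ILC1/3P against ILCP lay below its background of 16.3%. Of 6 gluconeogenesis genes 3 were tested and 0 called in any comparison, with 1 lower at an unadjusted p under 0.05 in each comparison with CLP and 1 by DESeq2 in ILC1/3P against CLP.

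Markers of cell division and of other cells also moved with the groups. The 16 proliferation genes summed to 7498 and 6547 CPM in ILC1/3P, 1830 to 2142 CPM in ILCP and 1841 to 2034 CPM in CLP. In ILC1/3P against ILCP 8 rose and 0 fell (for the 0, 0 by both other counts), beside 8.06% and 8.25% of all tested genes. Against CLP 7 rose and 1 fell in ILC1/3P, beside 11.8% and 11.7%. In ILCP against CLP 0 rose and 2, Mcm2 and Mcm6, fell, beside 3.91% and 2.87%. For that 0, 2 were higher at an unadjusted p under 0.05 and 1 by DESeq2. Among the 8 that rose against ILCP was Cdk1, which had 962 and 768 CPM in ILC1/3P against 26.1 to 48.4 CPM in ILCP. The 8 B lineage genes summed to 129 and 170 CPM in ILC1/3P, 155 to 191 CPM in ILCP and 2646 to 3413 CPM in CLP, with 3 at 0 in ILC1/3P (Igll1, Pax5 and Blnk). The 10 myeloid genes summed to 712 and 881 CPM in ILC1/3P, 134 to 182 CPM in ILCP and 744 to 953 CPM in CLP, with Elane, Ctsg and Ms4a3 at 0 in both innate lymphoid groups. Its members went opposite ways: Fcgr3, an Fc receptor that natural killer cells also carry, had 642 and 835 CPM in ILC1/3P, 118 to 171 CPM in ILCP and 42.1 to 93.5 CPM in CLP, while Mpo, the neutrophil peroxidase, had 0.164 and 0 CPM in ILC1/3P, 0 in ILCP and 438 to 711 CPM in CLP. The 7 dendritic genes summed to 65.0 and 30.7 CPM in ILC1/3P, 14.4 to 20.7 CPM in ILCP and 180 to 375 CPM in CLP, with Siglech at 0 in both innate lymphoid groups. The 10 erythroid genes, Hbb-bh1, Epb42 and Slc4a1 of them at 0 in every group, summed to at most 27.2 CPM, the 7 megakaryocyte genes to at most 62.7 CPM and the 7 hepatocyte genes to at most 89.3 CPM in any library. Their part in the differences of the 34 genes was not tested.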

How the data were processed

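Sorted fetal liver cells were lysed and reverse transcribed with a low-input SMARTer kit for bulk RNA-seq, per the labels' protocols. The deposited table gives, per the file headers, raw counts and FPKM for each gene and library, without pooling. The FPKM values were made by the authors; the length behind them was the same in all libraries to within 1% for each of 18766 genes and exceeded the locus span for 1153 of them (6.14%). The planned isozyme shares by FPKM are therefore given beside shares by CPM per kilobase of the longest coding GENCODE M21 transcript, chosen after seeing the data. Per the submitters' processing notes the genome was mm10; gene lengths, aligner, counter, annotation, strand use and the handling of reads that match several places were not given in the sources used here. Slc2a1, Hk1, Hk3, Gpi1, Pfkm, Pfkp, Pfkfb1, Pfkfb2, Aldoa, Tpi1, Gapdh, Pkm and Pdha1 have exons that overlap another gene's. So do Adpgk, Slc16a7, Mpc1, Hif1a, Gp1bb, Itga4, Mpo and Pax5 of the other genes named. The counts of all these genes are uncertain to that extent.

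The test was edgeR's quasi-likelihood F test (version 4.0.16, R 4.3.3) on the counts (filterByExpr, TMM scaling, robust quasi-likelihood fit of all 8 libraries with 1 mean per group), with Benjamini-Hochberg adjustment over all 13436 tested genes. Libraries of a group varied with a common coefficient of 0.679, the square root of the dispersion; residual degrees of freedom were 5, and prior ones had a median of 6.49. Standard errors were derived from the fold change and the F statistic. CPM are counts per 1000000 counts of the TMM-scaled library size. Where all libraries of a group had no count, a fold is a bound against 3 counts pooled over that group; without molecular identifiers such floors cover counting error only. The procedure was tested on simulated data with changes larger than many of those called here, so that test does not cover the smaller ones. Alternatives were median-ratio size factors, scaling by library total alone, no low-count filter, DESeq2 1.42.0, only the 2 groups compared, the replicate number as a block, and each library left out in turn.

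Values per library are given for genes called in any comparison, for Gapdh and for the most abundant isozyme of each step; of other lists, counts are given with values for up to 4 genes of smallest p, and sort markers, and marker genes at 0 or carrying a list's sum, were named after their values were seen. Some further genes of the 34 are given per library as neighbours in the pathway. The 34 genes and all lists were chosen with earlier results of these data known. Shared sequence was computed from GENCODE M21 transcripts, and copies were aligned with blastn 2.17.0 and Python 3.11.15. Promoter windows are from RefSeq.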

Additional observations from a re-analysis of the deposited data

How the results depend on the processing

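Of the 23 calls among the 34 genes, 10 were kept under all 14 alternative settings, 13 were lost under at least 1, and 0 reversed; where a call was lost, the cause was not tested unless the setting itself removed samples. With libraries scaled by their total alone, 15 of the genes were lower in ILC1/3P against ILCP (8 with TMM), and 1 was higher and 10 were lower in ILC1/3P against CLP (3 and 5 with TMM). Without the low-count filter, 13 were lower in ILC1/3P against ILCP, and 2 were lower in ILCP against CLP (1 with the filter). DESeq2 called 5 higher in ILC1/3P against CLP and 3 lower in ILCP against CLP, and a fit of only the 2 groups called 2 lower in ILCP against CLP. Leaving out each library in turn gave 0 higher and 5 to 9 lower in ILC1/3P against ILCP, 2 to 4 higher and 3 to 6 lower in ILC1/3P against CLP, and 3 to 6 higher and 1 to 2 lower in ILCP against CLP. Where that left ILC1/3P with 1 library, the lone sample was assumed to vary like the other groups. Fewest were called lower in ILC1/3P against ILCP (5) without ILC1/3P replicate 2, ILCP replicate 1 or ILCP replicate 3, fewest lower in ILC1/3P against CLP (3) without CLP replicate 1, and fewest higher in ILCP against CLP (3) without CLP replicate 2. Without ILC1/3P replicate 1, 2 were lower in ILCP against CLP.

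Over all tested genes, DESeq2 called 1757 lower in ILC1/3P against ILCP (1109 by edgeR), and 931 higher and 808 lower in ILCP against CLP (526 and 386 by edgeR), where 602 were lower without the low-count filter. Leaving out a library gave 623 to 1066 higher and 689 to 1233 lower in ILC1/3P against ILCP, and 347 to 613 higher and 215 to 502 lower in ILCP against CLP. The labels number the replicates without saying what a number shares. The deviations of same-numbered libraries from their group means correlated at 0.0867, 0.0566 and -0.00509 between ILCP and CLP, so the numbers were not taken as pairs. With the replicate number as a block, 0 were higher and 8 lower in ILC1/3P against ILCP, 3 higher and 3 lower in ILC1/3P against CLP, and 6 higher and 1 lower in ILCP against CLP; Pfkfb3 had adjusted p of 0.114 against ILCP and 0.0541 against CLP, and Pfkl 0.0587 against CLP. With the longest coding transcript in place of the length behind the FPKM, an alternative chosen after seeing the data, 34 of 87 group means of isozyme shares moved by more than 1 SD. With 2 libraries in ILC1/3P, genes of few counts there, such as Pfkfb3, Pfkfb4 and Pdk2, limit the precision most.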
